A study of Mus musculus with 6 samples.

Results

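The genes described here are 4 ligands of the fibroblast growth factor (FGF) family, *Fgf8*, *Fgf15*, *Fgf17* and *Fgf18*, and 6 genes known as feedback inhibitors or transcriptional targets of FGF signaling, *Spry1*, *Spry2*, *Spry4*, *Dusp6*, *Etv4* and *Etv5*. They were chosen by name, 10 of the 26437 genes in the expression table, and all 10 were among the 22921 genes whose mean over the libraries was high enough to be tested. RNA-seq compared wild-type (WT) mouse embryos with *Rdh10* KO embryos, which are homozygous for a null allele of the retinol dehydrogenase that carries out the first step of retinoic acid (RA) synthesis. The comparison asks which genes depend on RA in the early eye. Embryos of both groups were taken at E10 with no treatment, those of the KO group from matings of heterozygous parents, and each group had 3 libraries. The mice were outbred, from Black Swiss and C57BL/6 stock. A library pooled 3 embryos, and single embryos cannot be compared. The tissue was the frontal region of the head, which holds both optic vesicles, the frontonasal region and some adjacent forebrain. The sample titles call it eye, and the study's methods call it craniofacial/eye tissue. A level below is a normalized count, the number of reads on a gene divided by 1 factor for the library, and is not divided by gene length.

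FGF ligands are secreted proteins that bind FGF receptor tyrosine kinases together with heparan sulfate, and the receptors signal through RAS and the ERK kinases. ERK signaling activates the ETS transcription factors Etv4 and Etv5 and induces the Sprouty proteins and Dusp6, which in turn restrain the pathway, so that the mRNAs of these genes are widely used as a readout of FGF activity. In the early head *Fgf8* marks the anterior neural ridge, the frontonasal ectoderm and the boundary between midbrain and hindbrain, and in the trunk RA is known to limit the *Fgf8* domain.

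The 3 *Rdh10* KO libraries differed more among themselves than the 3 WT libraries did, since the chi-square statistic of their read counts per degree of freedom was 12.4 to 17.4 for pairs of *Rdh10* KO libraries and 2.73 to 5.61 for pairs of WT libraries. *Rdh10* KO replicates 1 and 3 differed most (17.4), and replicate 2 was at 12.4 from replicate 1 and 12.8 from replicate 3. Replicate 1 stood apart in some tissue markers. The summed level of 8 telencephalon and anterior midline genes was at 74.8% of the WT mean, of 7 optic vesicle and retina genes at 74.9% and of 6 embryonic blood genes at 42.2%. Replicate 3 stood apart in others. Its midbrain-hindbrain boundary sum was at 114%, against 177% and 168% in replicates 1 and 2, and its heart sum at 265%, against 139% and 158%. Results that change without replicate 1 are given both ways. The targeted gene followed the labels, since *Rdh10* was at 399, 342 and 381 normalized counts in WT and 183, 142 and 181 in *Rdh10* KO, a log2 difference of -1.16 with an SE of 0.13 (adjusted p = 7.35e-05 in limma), and *Rarb*, an RA receptor gene induced by RA, fell from 620 ± 19.8 to 308 ± 34.3 (SD, n = 3; adjusted p = 3.29e-05 in limma).

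In *Rdh10* KO eye tissue the ligand genes and the feedback genes did not move as 1 group. *Spry1*, *Spry2* and *Dusp6*, which encode inhibitors of the pathway, rose by 0.52, 0.30 and 0.32 on the log2 scale. *Etv4* fell by 0.69 on the log2 scale, to 62.0% of the WT level, while its relative *Etv5* was at 981 ± 26.5 in WT and 967 ± 51.8 in *Rdh10* KO (SD, n = 3). None of the 4 ligand genes passed the test in limma, where 1 of them had an unadjusted p under 0.05, and both edgeR tests called 1 of them, *Fgf15*, while DESeq2 called 0. Of the 10 genes, 3 were thus called higher at an adjusted p under 0.05, against 10.3% of all genes tested, and 1 was called lower, against 9.12% of all genes tested. The libraries of the groups did not overlap for 4 genes that were higher, where 17.6% of all genes tested did so, and for 1 that was lower, where 17.0% did so. None of the 10 also passed the study's cut-off of 0.85 in log2 fold change with limma, edgeR or DESeq2, although 5 had an unadjusted p under 0.05 in limma. That rule called 3.29% of all genes tested. Without *Rdh10* KO replicate 1 the genes called higher were *Spry1*, *Dusp6* and *Fgf15*, and *Etv4* was called lower. Limma without the intensity trend gave the same fold changes but called none of *Spry1*, *Spry2* and *Dusp6* (adjusted p = 0.0878, 0.114 and 0.0988), where it called 197 genes lower and 448 higher of all genes tested, in place of 2091 and 2360.

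The promoters of the 3 genes that rose are shown because these feedback inhibitors moved in the same direction. Each line gives 250 bases upstream of the annotated start, from 5′ to 3′ on the strand of the gene, from RefSeq on the GRCm38.p6 build. Capitals mark the ETS core GGAA, or TTCC where the core lies on the other strand. *Spry1* is at chr3:37639697-37639946 on the plus strand, *Spry2* at chr14:105896820-105897069 on the minus strand and *Dusp6* at chr10:99262981-99263230 on the plus strand.
Spry1: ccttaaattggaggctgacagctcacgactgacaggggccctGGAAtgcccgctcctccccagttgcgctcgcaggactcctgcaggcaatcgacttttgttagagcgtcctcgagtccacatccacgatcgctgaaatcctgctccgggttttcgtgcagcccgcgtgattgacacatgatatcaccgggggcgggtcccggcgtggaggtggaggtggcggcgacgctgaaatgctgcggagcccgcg
Spry2: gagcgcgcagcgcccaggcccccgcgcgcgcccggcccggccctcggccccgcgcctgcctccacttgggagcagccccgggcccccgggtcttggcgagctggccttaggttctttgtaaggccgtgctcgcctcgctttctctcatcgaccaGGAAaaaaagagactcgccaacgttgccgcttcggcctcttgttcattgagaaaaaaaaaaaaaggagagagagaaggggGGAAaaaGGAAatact
Dusp6: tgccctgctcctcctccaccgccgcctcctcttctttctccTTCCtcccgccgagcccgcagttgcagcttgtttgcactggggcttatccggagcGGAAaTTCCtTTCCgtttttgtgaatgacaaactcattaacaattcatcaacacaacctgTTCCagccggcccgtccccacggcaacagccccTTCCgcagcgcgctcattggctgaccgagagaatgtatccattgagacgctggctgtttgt

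The ETS core, counted on both strands and with overlaps allowed, occurred 1 time in the *Spry1* window, 3 times in that of *Spry2* and 6 times in that of *Dusp6*. These 4 letters are common, since 93.4% of 32851 promoter windows of the same length held at least 1 core and the median window held 3. As many as 6 cores were found in 8.69% of windows. The longer core CCGGAA was present in 12.0% of all windows and the nuclear receptor half-site AGGTCA in 14.0%, and neither string of letters was found in these 3 windows. Windows for *Fgf18* and *Etv5* were also matched, so that 5 of the 10 genes were matched. The *Fgf18* window held 1 core and the *Etv5* windows held 0 and 4, and neither gene was called in limma. *Fgf8*, *Fgf15*, *Fgf17* and *Etv4* were not matched. *Spry4*, on chr18, was left out of the matching.

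**Figure D1:**
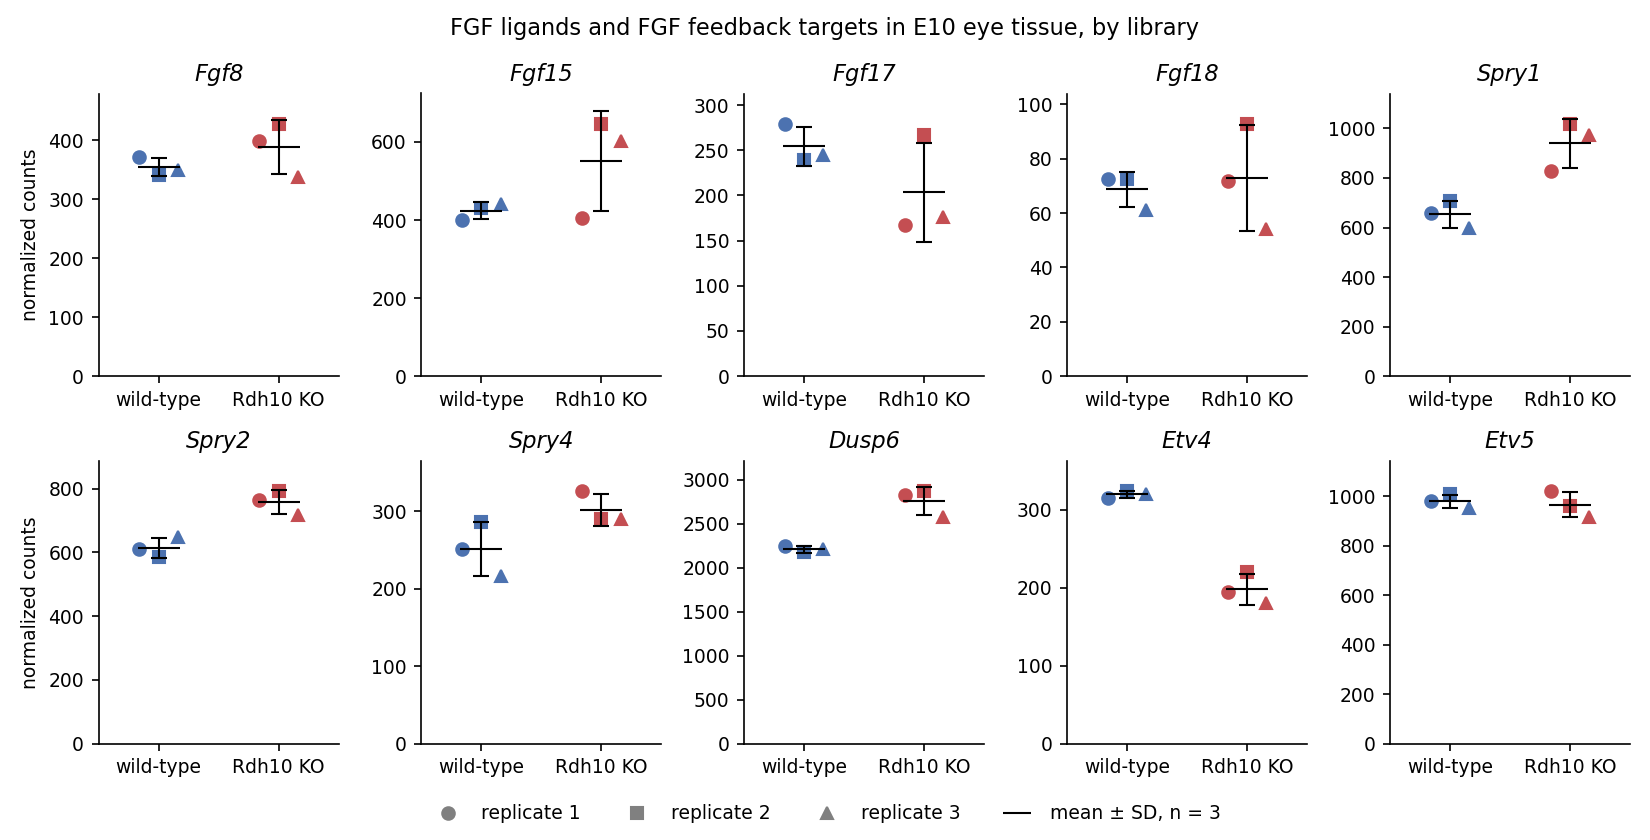
Normalized counts (y axis, linear from 0, with its own scale in each panel) of the 10 genes in the 3 wild-type (blue) and 3 *Rdh10* KO (red) libraries, with symbols for replicates and bars for mean ± SD (n = 3). The groups are apart for *Spry1*, *Spry2*, *Spry4*, *Dusp6* and *Etv4* and overlap for the other 5 genes.

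*Fgf8* (ENSMUSG00000025219.13, chr19:45736798-45742915, minus strand, on GRCm38) is the ligand whose trunk domain RA limits. It was at 371, 342 and 349 normalized counts in the 3 WT libraries and at 399, 428 and 338 in the 3 *Rdh10* KO libraries. Replicates 1 and 2 of *Rdh10* KO lay above every WT library and replicate 3 lay below every WT library, so the groups overlapped. The log2 fold change was 0.13 (SE 0.11, 95% interval -0.12 to 0.37) with an adjusted p of 0.50 in limma, and leaving out each library in turn gave 0.05 to 0.22. Both ends of the interval lay short of the study's cut-off of 0.85. In bulk samples of mixed tissue fewer cells of a type and less RNA per cell cannot be told apart. A change of the *Fgf8* domain in place was not measured.

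*Fgf17* (ENSMUSG00000022101.5, chr14:70636203-70642268, minus strand) belongs to the same ligand subfamily as *Fgf8* and *Fgf18*. It was at 279, 239 and 244 in WT and at 168, 267 and 176 in *Rdh10* KO. Replicates 1 and 3 of *Rdh10* KO were below all WT libraries, and replicate 2 was within the WT range. The log2 fold change was -0.35 (SE 0.17, 95% interval -0.71 to 0.01, adjusted p = 0.176 in limma). Without *Rdh10* KO replicate 2 it was -0.56 with an adjusted p of 0.0182 in limma, so that this library decided the call. The ratio of *Fgf17* to *Fgf8* within a library, chosen after the values were seen, was 0.752, 0.700 and 0.701 in WT and 0.420, 0.623 and 0.523 in *Rdh10* KO. All 3 *Rdh10* KO ratios were below the WT ones, a log2 difference of -0.48, with an exact two-sided permutation p of 0.1, the smallest that 3 libraries against 3 can give.

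*Fgf18* (ENSMUSG00000057967.12, chr11:33117430-33147400, minus strand) had the lowest counts of the 4 ligands. It was at 72.6, 72.3 and 61.1 in WT and at 71.6, 92.8 and 54.1 in *Rdh10* KO, where replicates 2 and 3 lay on either side of all WT libraries. The log2 fold change was 0.05 (SE 0.23, 95% interval -0.45 to 0.56, adjusted p = 0.914 in limma). Its sign changed without *Rdh10* KO replicate 2 (-0.14) and without WT replicate 3 (-0.03), so no direction can be given.

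*Fgf15* (ENSMUSG00000031073.6, chr7:144896531-144900953, plus strand) encodes the mouse counterpart of human FGF19, known as an endocrine hormone of the gut and expressed in the embryonic brain. It was at 400, 430 and 442 in WT and at 405, 646 and 602 in *Rdh10* KO. Replicates 2 and 3 of *Rdh10* KO were above every WT library, while replicate 1, the library with low forebrain and optic markers, lay within the WT range. The log2 fold change was 0.35 (SE 0.15, 95% interval 0.04 to 0.66) with an adjusted p of 0.116 in limma. Without *Rdh10* KO replicate 1 it was 0.56 with an adjusted p of 0.00385 in limma, and with all libraries the edgeR quasi-likelihood test gave 0.38 with an adjusted p of 0.0462. The part of tissue makeup in this value was not tested. *Fgf15* shares 761 bases of exon with *Gm26793* on the other strand, a gene listed at 25.6, 17.8 and 34.8 in WT and 55.9, 58.7 and 60.0 in *Rdh10* KO, and whether the counting used strand is not given in the sources used here.

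Among the Sprouty genes, which encode membrane-associated inhibitors of receptor tyrosine kinase signaling, *Spry1* showed the largest change. *Spry1* (ENSMUSG00000037211.12, chr3:37639947-37644598, plus strand) was at 659, 707 and 598 in WT and at 829, 1019 and 972 in *Rdh10* KO. Every *Rdh10* KO library was above every WT library. The mean rose from 654 ± 54.4 to 940 ± 98.7 (SD, n = 3), or 144% of WT, a log2 fold change of 0.52 (SE 0.10, 95% interval 0.31 to 0.73) with an adjusted p of 0.00234 in limma. Leaving out each library in turn gave 0.46 to 0.61 with the call kept each time. A transcript of unknown coding status on the other strand, *Gm42922*, shares 710 bases of exon with *Spry1* and was listed at 0 to 11.1 in WT and 8.24 to 13.6 in *Rdh10* KO, levels far below those of *Spry1*.

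*Spry2* (ENSMUSG00000022114.4, chr14:105891947-105896819, minus strand) was at 611, 585 and 647 in WT and at 765, 792 and 718 in *Rdh10* KO, with no overlap. The mean rose from 614 ± 30.9 to 758 ± 37.4 (SD, n = 3), or 123% of WT, a log2 fold change of 0.30 (SE 0.09, 95% interval 0.12 to 0.49) with an adjusted p of 0.0246 in limma. This call was close to the threshold. It was lost without *Rdh10* KO replicate 1 (0.30, adjusted p = 0.0552 in limma), without *Rdh10* KO replicate 2 (0.27, adjusted p = 0.0704), without WT replicate 1 (0.30, adjusted p = 0.0906) and without WT replicate 2 (0.27, adjusted p = 0.124), while the direction stayed the same.

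*Spry4* (ENSMUSG00000024427.6, chr18:38586247-38601415, minus strand) was at 252, 286 and 216 in WT and at 326, 290 and 289 in *Rdh10* KO. All 3 *Rdh10* KO libraries were above all 3 WT libraries, the closest pair being 286 and 289. The log2 fold change was 0.27 (SE 0.13, 95% interval -0.01 to 0.55) with an adjusted p of 0.172 in limma, so this gene did not pass the test although its fold change was near that of *Spry2*.

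*Dusp6* (ENSMUSG00000019960.7, chr10:99263231-99267489, plus strand), which encodes the phosphatase that inactivates ERK in the cytoplasm, had the highest counts of the 10 genes. It was at 2252, 2174 and 2212 in WT and at 2823, 2871 and 2574 in *Rdh10* KO. The lowest *Rdh10* KO library was above the highest WT library. The mean rose from 2213 ± 38.6 to 2756 ± 159 (SD, n = 3), or 125% of WT, a log2 fold change of 0.32 (SE 0.07, 95% interval 0.17 to 0.47) with an adjusted p of 0.0058 in limma. The call was kept when each library was left out in turn, with fold changes of 0.29 to 0.36 and a highest adjusted p of 0.0468 in limma.

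*Etv4* (ENSMUSG00000017724.14, chr11:101769742-101785371, minus strand), also known as Pea3, encodes an ETS transcription factor that is a standard target of FGF signaling. It was at 315, 324 and 321 in WT and at 195, 220 and 180 in *Rdh10* KO. The WT libraries were nearly equal, and the highest *Rdh10* KO library was below the lowest WT library. The mean fell from 320 ± 4.42 to 198 ± 20.1 (SD, n = 3), a log2 fold change of -0.69 (SE 0.12, 95% interval -0.96 to -0.43) with an adjusted p of 0.00127 in limma. Without each library in turn it was -0.77 to -0.63 with a highest adjusted p of 0.0145 in limma.

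*Etv5* (ENSMUSG00000013089.15, chr16:22381309-22439719, minus strand) encodes a close relative of Etv4 and usually responds to the same signals. It was at 980, 1008 and 955 in WT and at 1021, 963 and 918 in *Rdh10* KO, with the groups overlapping. The log2 fold change was -0.02 (SE 0.08, 95% interval -0.19 to 0.15, adjusted p = 0.897 in limma). The difference between the 2 factors was compared within libraries, a choice made after the values were seen. The ratio of *Etv4* to *Etv5* counts was 0.322, 0.321 and 0.336 in WT and 0.191, 0.228 and 0.196 in *Rdh10* KO. All *Rdh10* KO ratios were below all WT ratios, a log2 difference of -0.67 with an exact two-sided permutation p of 0.1, again the smallest possible.

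**Figure D2:**
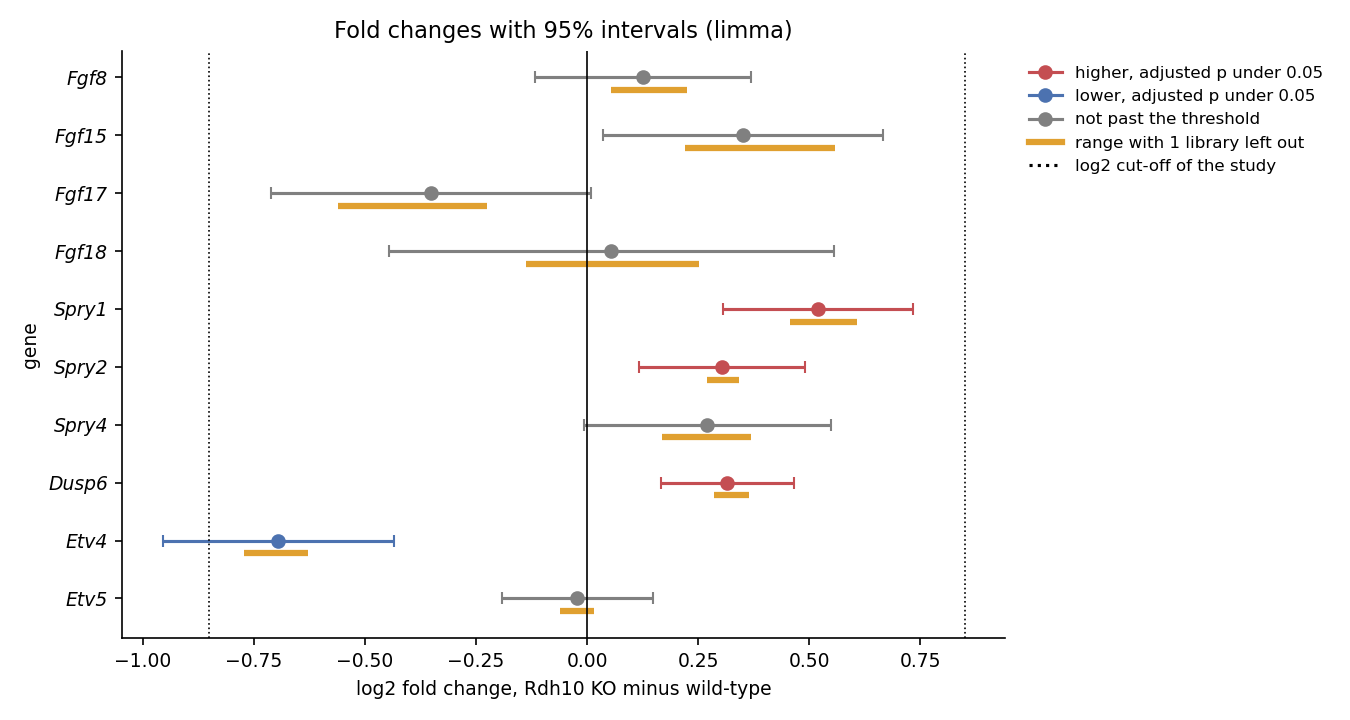
Log2 fold changes of *Rdh10* KO against wild-type (x axis) for the 10 genes (y axis), with 95% intervals from limma, yellow bars for the range when 1 library is left out, and dotted lines at the study's cut-off of 0.85. *Spry1*, *Spry2* and *Dusp6* are higher, *Etv4* is lower, and no fold change reaches a dotted line.

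Across the 10 genes the log2 fold changes had a median of 0.20, and across all genes tested the median was 0.00. Genes of a similar level were called more often than all genes, so the counts were also set beside these. Among 10954 genes with a mean between 50 and 3000 normalized counts, 17.5% were called higher and 14.7% lower, and the median size of the log2 fold change, without its sign, was 0.23. The groups did not overlap for 25.7% of these genes with *Rdh10* KO higher and for 24.3% with *Rdh10* KO lower.

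Levels of different genes were compared per length, as FPKM, reads scaled to exon length and to the reads of the library, computed from the recovered reads. In WT *Dusp6* was highest at 36.1 ± 0.71 FPKM (SD, n = 3). *Spry2* followed at 15.0, *Fgf8* at 13.4, *Etv5* at 12.2 and *Spry1* at 11.5 FPKM. Below them were *Fgf17* at 7.70, *Fgf15* at 7.08, *Etv4* at 5.27, *Fgf18* at 2.96 and *Spry4* at 2.70 FPKM. Neighbors in this order whose WT libraries overlapped were *Etv5* and *Spry1*, *Fgf17* and *Fgf15*, and *Fgf18* and *Spry4*. In *Rdh10* KO the mean of *Spry1*, at 16.6 FPKM, was above those of *Fgf8* at 14.7 and *Etv5* at 12.1, and the mean of *Fgf15*, at 9.25, was above that of *Fgf17* at 6.18.

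Within the *Rdh10* KO group the order of the libraries, which the choice of genes did not use, differed between the 10 genes. Replicate 2 had the highest value for 8 of the 10 genes, all but *Spry4* and *Etv5*, whereas 33.7% of the 15272 genes with a mean above 10 were highest there. Replicate 3 had the lowest value for 7 of the 10, whereas 36.1% of those genes were lowest there. The other 3, *Fgf15*, *Fgf17* and *Spry1*, were lowest in replicate 1. The other pathway lists varied. Among 17 other feedback inhibitors and targets 10 were highest in replicate 2 and 12 were lowest in replicate 3. Among 5 receptor and co-receptor genes with a mean above 10, 1 was highest and 4 were lowest in replicate 2, and among 13 heparan sulfate genes 4 were highest and 7 were lowest there. Of 17 receptor adaptor and ERK cascade genes 4 were highest in replicate 2 and 7 in replicate 3, and 3 of 4 homologous factor genes were highest in replicate 3. These are descriptions of 3 libraries with no test, and the genes share libraries and pathway.

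Marker genes of several tissues were summed in each library. Such a sum cannot separate the amount of a tissue from the RNA level per cell. Several of the 10 FGF genes are known to be expressed at the boundary between midbrain and hindbrain, among them *Fgf8*, *Fgf15*, *Fgf17*, *Fgf18*, *Spry1* and *Dusp6*. The 7 marker genes of this boundary summed to 1312 to 1692 normalized counts in WT and 1678 to 2601 in *Rdh10* KO. None of the 7 was at 0 counts, and the log2 fold changes of all 7 were above 0, from 0.209 to 1.055 with a median of 0.70. Of them 3 were called higher, *Wnt1*, *Pax5* and *En1*. *Pax5* rose from 352 ± 63.8 to 677 ± 157 (SD, n = 3; adjusted p = 0.00142 in limma), and the most abundant, *En2*, was at 644 ± 89.9 and 774 ± 260 (adjusted p = 0.538 in limma). As a percent of the WT mean the sum was 177, 168 and 114 in *Rdh10* KO replicates 1 to 3. Replicates 1 and 2 were high, and replicate 3, where 7 of the 10 FGF genes were lowest, was within the WT range of 89.1 to 115. Replicate 1, where the sum was highest, had the lowest *Rdh10* KO values of *Fgf15*, *Fgf17* and *Spry1*. The 4 ligand genes, which are expressed at this boundary, did not pass the test in limma. *Wnt1* and *En1* are named after their values were seen. The part of this tissue in the changes of *Spry1*, *Spry2*, *Dusp6* and *Etv4* was not tested.

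Markers of the anterior head, where *Fgf8* and *Etv4* are also expressed, gave another pattern. The 8 telencephalon and anterior midline genes summed to 9285 to 9689 in WT and 7044 to 9990 in *Rdh10* KO, where replicates 1 to 3 were at 74.8%, 106% and 104% of the WT mean. *Lhx2* fell from 1710 ± 55.6 to 1038 ± 352 (SD, n = 3; adjusted p = 0.00939 in limma), *Six3* rose from 742 ± 25.9 to 1063 ± 296 (adjusted p = 0.0453 in limma), and the most abundant gene, *Zic1*, was at 3027 ± 82.6 and 3002 ± 260 (adjusted p = 0.928 in limma). *Emx2* was at 282, 725 and 542 in *Rdh10* KO against a WT mean of 739 (adjusted p = 0.0797 in limma). The 7 optic vesicle and retina genes summed to 2272 to 2480 in WT and 1783 to 2541 in *Rdh10* KO, or 74.9%, 107% and 98.0% of the WT mean, and the most abundant, *Pax6*, was at 1475 and 1373. The fold changes of 6 of these 7 genes were below 0, with a list median of -0.51. *Vax2* fell from 25.5 ± 6.72 to 6.12 ± 1.25 (SD, n = 3; adjusted p = 0.00778 in limma), and *Rax* rose from 195 ± 11.7 to 317 ± 101 (adjusted p = 0.0344 in limma). *Vax1* and *Six6* did not pass the test, although all their *Rdh10* KO libraries were below all WT libraries, with *Six6* at 379 and 311. *Six3*, *Emx2*, *Vax1*, *Vax2* and *Rax* are named after their values were seen. Single anterior genes were thus lower in *Rdh10* KO libraries whose sums were near the WT mean, and the part of anterior tissue in the change of *Etv4* was not tested.

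The 8 craniofacial mesenchyme genes summed to 13491 to 13666 in WT and 10632 to 10842 in *Rdh10* KO, with 4 lower and 1 higher, a difference of the same direction as that of *Etv4*. The most abundant genes of this list, *Prrx1* at 2779 and 2976 and *Twist1* at 2506 and 2713, did not pass the test. The 9 genes of the olfactory and lens placode and surface ectoderm summed to 6953 to 7735 in WT and 7212 to 8418 in *Rdh10* KO, and 1 of them rose, *Cdh1*, from 865 ± 63.4 to 1063 ± 102 (SD, n = 3; adjusted p = 0.0386 in limma), named after its values were seen. The most abundant genes of this list, *Krt18* at 1439 and 1602 and *Krt8* at 1418 and 1344, did not pass the test. The 8 genes of the first branchial arch summed to 1299 to 1639 and 1264 to 1388, and 1 of them fell, *Pitx1*, from 665 to 526 (adjusted p = 0.0499 in limma), while *Dlx3* was at 215 and 249. The part of these tissues in the change of *Etv4* was not tested.

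Markers of hindbrain and trunk, heart and blood were summed in the same way. Hindbrain and trunk Hox genes, of which 6 of 8 were tested, summed to 9 to 71 normalized counts in WT and 13 to 32 in *Rdh10* KO, with *Hoxa2* at 10.6 and 11.3 and *Hoxb2* at 14.1 and 4.50. Heart genes summed to 96 to 134 and 164 to 312, with *Actc1* higher at 152 against 51.6 and *Myh7* at 38.9 against 25.5. The 7 heart genes did not rise together, since 4 had fold changes above 0 and 3 below 0. Only *Actc1* passed the test in limma. Embryonic blood genes summed to 99484 to 133781 in WT and 50472 to 154793 in *Rdh10* KO, with *Hbb-y* at 45252 and 39635 (adjusted p = 0.474 in limma) and *Hbb-bh1* at 44375 and 38361 (adjusted p = 0.433 in limma). The low *Rdh10* KO sum was that of replicate 1.

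**Figure D3:**
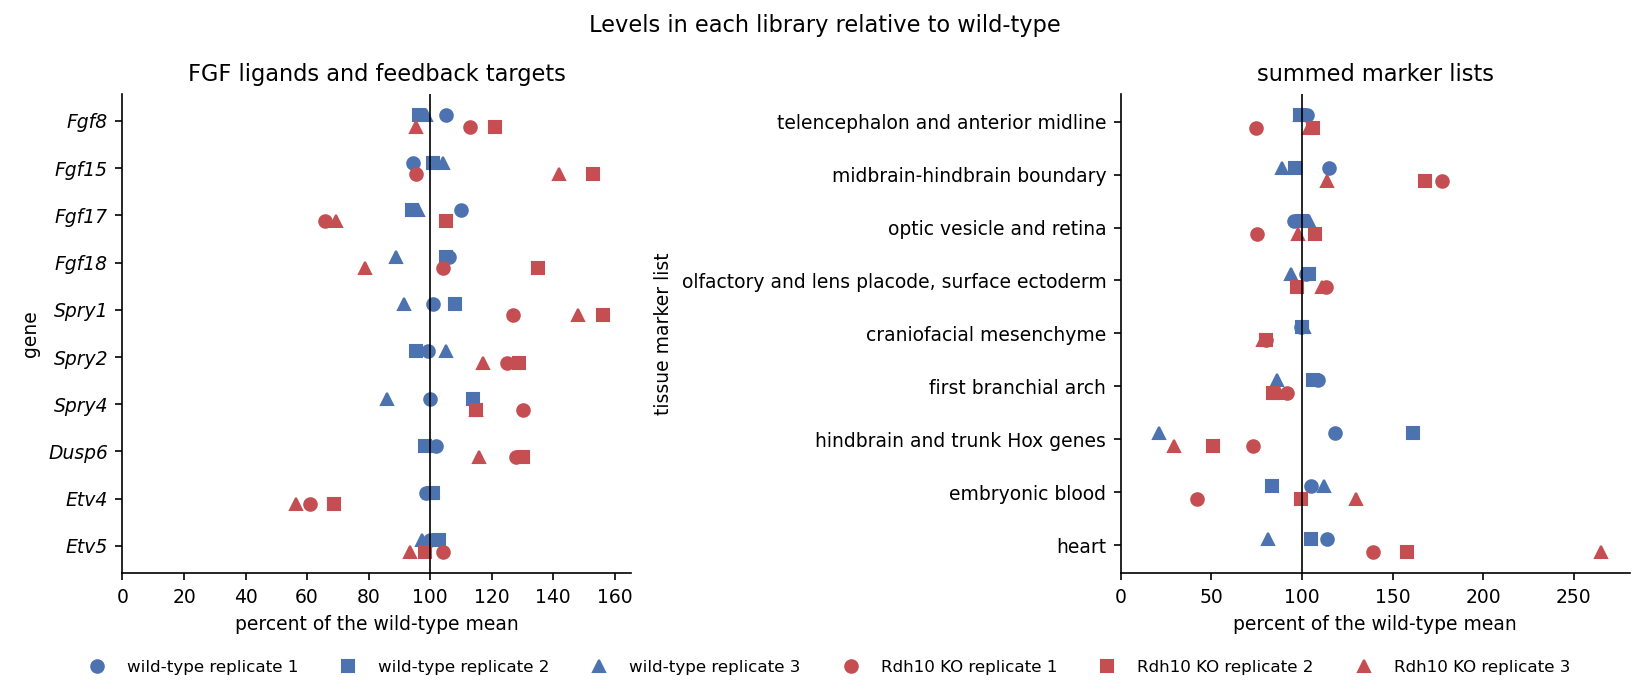
Levels in each library as a percent of the wild-type mean (x axes, linear from 0, with different ends), for the 10 genes on the left and for the summed marker lists on the right, with color for the group and symbol for the replicate. *Etv4* is below 100% in all 3 *Rdh10* KO libraries, and the midbrain-hindbrain sum is at 177, 168 and 114% in *Rdh10* KO.

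The other genes of the pathway were described in 7 lists, 84 genes in all, of which 81 were tested, 8 were lower and 31 were higher. Of all genes tested 9.12% were lower and 10.3% higher, and of those at a level of 50 to 3000 normalized counts 14.7% and 17.5%, so the number of pathway genes that were lower was near the share over all genes. Without *Rdh10* KO replicate 1 these counts were 7 and 28, and without WT replicate 2, the library that lowered them most, 5 and 19. They were 5 and 25 without *Rdh10* KO replicate 2, and likewise 5 and 25 without WT replicate 1. Of 14 other secreted ligand genes 11 were tested and 1 rose, *Fgf10*, a ligand of mesenchyme that signals to epithelium, from 217 ± 7.84 to 314 ± 52.1 (SD, n = 3), a log2 fold change of 0.52 (adjusted p = 0.0132 in limma). The median of this list was 0.23, or 0.03 when genes with few reads were set at their bounds. The 4 FGF homologous factor genes, whose products stay in the cell and bind sodium channels, had 2 that rose. *Fgf11* rose from 46.2 ± 5.09 to 177 ± 44.4 (SD, n = 3), a log2 fold change of 1.91 (adjusted p = 5.38e-05 in limma). *Fgf14* rose from 40.3 ± 8.87 to 96.8 ± 7.91 (SD, n = 3), a log2 fold change of 1.28 (adjusted p = 0.00157 in limma). *Fgf13*, with the highest level per length of the 4, was at 421 ± 27.6 and 456 ± 67.7 (adjusted p = 0.61 in limma). These factors are not ligands of FGF receptors.

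Of 7 receptor and co-receptor genes, 3 rose and the other 4 did not pass the test, with a list median of 0.44, or 0.36 with genes of few reads at their bounds. *Fgfr2* was at 1900, 1924 and 1820 in WT and 2563, 2583 and 2504 in *Rdh10* KO, or 0.44 higher on the log2 scale with an SE of 0.07 (adjusted p = 0.000488 in limma). The 3 libraries of each group lay close together and the groups were far apart. *Fgfr3* rose from 719 ± 74.4 to 1094 ± 184 (SD, n = 3), a log2 fold change of 0.60 (adjusted p = 0.00317 in limma), and *Fgfr1* from 2589 ± 185 to 3164 ± 278 (SD, n = 3), a log2 fold change of 0.29 (adjusted p = 0.0212 in limma).

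Heparan sulfate proteoglycans hold FGF ligands at the receptor. Of 13 genes for their core proteins and enzymes, 5 rose and 1 fell, with a list median of 0.17. *Gpc3* rose from 6721 ± 566 to 9239 ± 333 (SD, n = 3), *Sdc2* from 890 ± 45.2 to 1228 ± 75.5 and *Gpc4* from 938 ± 9.11 to 1241 ± 182, with adjusted p of 0.000559, 0.0014 and 0.0133 in limma. *Sdc1*, an epithelial syndecan, fell from 3505 ± 88.4 to 2679 ± 273 (SD, n = 3; adjusted p = 0.00291 in limma).

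Of 17 genes for receptor adaptors and the ERK cascade, 9 rose and 3 fell, with a list median of 0.28. *Shc1* and *Gab1*, which encode adaptor proteins, rose by log2 fold changes of 0.56 and 0.58, and *Braf*, which encodes a kinase that activates MEK, by 0.61 (adjusted p = 0.000181, 0.00046 and 0.000247 in limma). *Hras* fell from 1736 ± 43.7 to 1221 ± 96.9 (SD, n = 3; adjusted p = 0.000539 in limma), while *Nras*, the gene of this list with the highest level per length, was at 5087 ± 393 and 5161 ± 509 (adjusted p = 0.918 in limma).

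Of the 17 other feedback inhibitors and targets, 5 rose and 3 fell, with a list median of 0.16. *Dusp4*, which encodes a nuclear MAP kinase phosphatase, rose from 526 ± 21.9 to 768 ± 76.8 (SD, n = 3), and *Phlda1* rose from 695 ± 57.4 to 981 ± 72.4 (adjusted p = 0.00148 and 0.00187 in limma). *Dusp9*, which encodes an ERK phosphatase of the same family as Dusp6, fell from 3170 ± 140 to 2239 ± 117 (SD, n = 3), and *Ccnd1*, the cyclin D1 gene, fell from 8657 ± 80.6 to 6448 ± 300 (adjusted p = 0.000278 and 0.000389 in limma). The related inhibitor genes *Spred1* and *Spred2*, named after their values were seen, rose by log2 fold changes of 0.40 and 0.31 (adjusted p = 0.00198 and 0.0107 in limma). Other phosphatase genes of the lists, also named after their values were seen, were *Dusp5*, which fell by 0.41 on the log2 scale, and *Dusp1*, which rose by 0.33 (adjusted p = 0.033 and 0.045 in limma). *Dusp7* was at 1393 and 1471 and *Dusp14* at 55.1 and 45.5, and neither passed the test (adjusted p = 0.657 and 0.442 in limma).

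Of 12 immediate early genes that respond to ERK, 6 rose and 1 fell, with a list median of 0.59, or 0.48 with genes of few reads at their bounds. *Ier3* was at 37.9, 15.6 and 21.6 in WT and 164, 467 and 402 in *Rdh10* KO, or 3.74 higher on the log2 scale with an SE of 0.37 (adjusted p = 2.21e-05 in limma). *Egr1* rose from 48.4 ± 8.5 to 108 ± 16.2 and *Junb* from 98.9 ± 23.8 to 169 ± 16.7 (SD, n = 3; adjusted p = 0.0021 and 0.00882 in limma). *Egr2* had 0 reads in every WT library and a mean of 5.16 in *Rdh10* KO, at least 1.54-fold higher when set against 3 reads in a WT library. *Ier2*, with the highest level per length of the list, was at 1573 ± 132 and 1288 ± 192 (adjusted p = 0.0594 in limma).

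**Figure D4:**
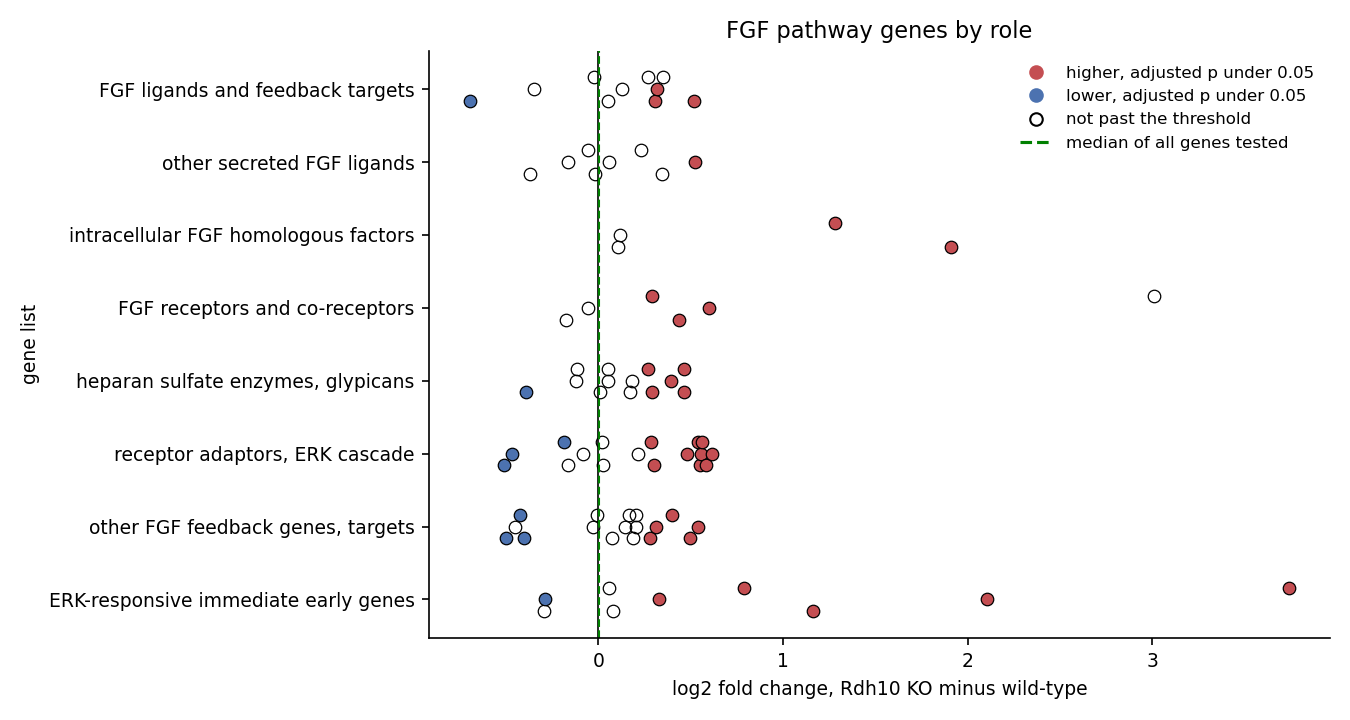
Log2 fold changes of *Rdh10* KO against wild-type (x axis) for the genes of each FGF pathway list (y axis), filled where the adjusted p is under 0.05 in limma. Genes whose libraries in 1 group all held 3 reads or fewer are not drawn, the open point at 3.01 is *Kl* (0 to 3.76 normalized counts in wild-type and 2.13 to 3.58 in *Rdh10* KO), and the list of receptor adaptors and the ERK cascade has 9 genes that are higher and 3 that are lower.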

How the data were processed

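RNA-seq was analysed for 3 WT and 3 *Rdh10* KO pools of E10 frontal head tissue, which the study's methods call biological replicates. According to those methods the authors made directional, poly(A)-selected libraries, aligned reads to mm10 with TopHat, estimated transcript abundance by Expectation–Maximization, and compared groups with a likelihood ratio test in edgeR. The deposited signal, which the authors' methods call FPKM, is a normalized count per gene. Every value is a whole number of reads divided by 1 factor per library (0.8499 to 1.3966) and not by length, and within a tolerance of 0.1 reads 100.0% of values in each library came out whole. A library held 16392777 to 27101025 reads on genes, and 3 reads equal 2.15 to 3.53 normalized counts. Of 26438 lines, 1 names no gene and was left out. FPKM had been assumed as the unit, and the planned test was kept.

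The 10 genes, all lists and the tests were chosen with earlier results of these data known. Genes with a mean above 0.5 entered limma 3.58.1 (R 4.3.3) as log2(value + 0.1) (intensity trend, no covariate), with Benjamini-Hochberg adjustment over all genes tested. Fold changes are on this scale, which understates changes of low genes. On the recovered reads, the edgeR 4.0.16 quasi-likelihood test called 2190 genes lower and 2608 higher, and its likelihood ratio test and DESeq2 1.42.0 were also run. Named are the 10 genes, for each pathway list up to 4 called genes of lowest adjusted p and the gene of highest level per length, and for each marker list its 2 most abundant genes, with exceptions stated. Positions, overlaps and exon lengths came from GENCODE mouse release 21 (GRCm38), which held 26288 of the 26437 gene identifiers. Each test was first tried on simulated data. Proteins were not used here, and ChIP-seq was not analysed here.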

Additional observations from a re-analysis of the deposited data

How the results depend on the processing

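Over 19 alternatives, 6 of which left out 1 library each, *Fgf8* and *Spry4* kept their direction and did not pass the test (0.05 to 0.22 and 0.17 to 0.37 on the log2 scale). Limma without the intensity trend called 0 of the 10 genes higher (*Spry1* 0.52, *Spry2* 0.30, *Dusp6* 0.32, with adjusted p of 0.0878, 0.114 and 0.0988) and 1 lower, and 0 lower and 6 higher of the other pathway genes, against 8 and 31. It also called only 197 genes lower and 448 higher of all genes, against 2091 and 2360. With the cut-off of 0.85 added, 0 of the 10 genes were called in either direction (*Spry1* 0.52, *Spry2* 0.30, *Dusp6* 0.32, *Etv4* -0.69), and of the other pathway genes 0 lower and 6 higher. *Fgf15* was called by edgeR (0.38 in both tests), while DESeq2 gave an adjusted p of 0.0551, and *Fgf18* was at -0.039 after quantile normalization. The groups share replicate numbers, but same-numbered libraries did not deviate together (r = -0.03, -0.04 and -0.07 over 15272 genes) and none correlated best with its own number. A replicate block called 1387 genes lower and 1715 higher, left *Spry2* at 0.30 without a call (adjusted p = 0.0751) and called 5 other pathway genes lower.

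With 1 library left out, the 10 genes had 1 to 2 called lower (2 without *Rdh10* KO replicate 2, where *Fgf17* was added) and 2 to 3 called higher, and the other pathway genes 5 to 7 lower and 19 to 28 higher. *Fgf15* ranged from 0.22 to 0.56, *Fgf17* from -0.56 to -0.23, *Fgf18* from -0.14 to 0.25, *Spry2* from 0.27 to 0.34 and *Etv5* from -0.061 to 0.016. Only 3 libraries per group and the spread among *Rdh10* KO libraries limit precision, with a median SD over genes of 0.153 on the log2 scale against 0.107 in WT. The cause of these shifts was not tested.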
